A study of Mus musculus musculus x Mus musculus castaneus with 12 samples.

Results

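The 8 genes described here encode the DNA methyltransferases and their partners, *Dnmt1*, *Dnmt3a*, *Dnmt3b*, *Dnmt3l* and *Uhrf1*, and the TET enzymes *Tet1*, *Tet2* and *Tet3*. They were taken by gene symbol from the 24346 genes of the series, and all 8 were measured in each of the 12 RNA-seq samples. The samples were mouse ES cells of F1 hybrids between C57BL/6J (BL6) and *Mus castaneus* (cast), in which SNPs tell the parental alleles apart. In BC cells the mother was BL6, and in CB cells the mother was cast. In BC, 2 wt samples were male and 2 were female, and 3 male *Kdm6a* KO clones were sequenced; in CB, all samples were male, with 2 wt and 3 KO.

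All cells were grown on inactivated mouse embryonic fibroblasts in serum with LIF, and before use the fibroblasts were depleted by letting them settle on gelatin, moving the ES cells to new plates and passaging them once more. *Kdm6a*, which is X-linked and encodes a histone H3K27 demethylase, was edited by CRISPR/Cas9, either by a deletion from exon 2 to exon 4 (ΔE) or by a deletion of the promoter and the first exons (ΔP). The KO clones were ΔE1, ΔE3 and ΔP4 in BC and ΔE2.5, ΔE2.7 and ΔP2.1 in CB. ΔE1 and ΔE3 came from the same editing event and share a second deletion on the X chromosome, and the CB parent line carries a GFP transgene. Each KO sample is therefore 1 clone. The study's methods call the male wt replicates biological, but neither they nor the labels say whether they came from separate cultures, so the tests measure the spread between these samples.

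In mammals, DNMT3A and DNMT3B place methyl groups on unmethylated cytosines, and DNMT3L, which has no catalytic activity of its own, binds and stimulates them. DNMT1 copies methylation to the new strand after replication, and UHRF1 brings it to hemimethylated sites. TET proteins oxidize the methyl group, which starts its removal. Mouse ES cells in serum express the de novo enzymes at high levels, and female ES cells with both X chromosomes active are known for low DNA methylation.

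The methyltransferases and the TET enzymes can be told apart at their catalytic residues. The coding stretches below, from GENCODE M21 transcripts of GRCm38 that have a RefSeq match, are shown because the text groups the genes by these activities. In the methyltransferases the capitals mark the proline and cysteine codons of the catalytic loop, at codons 705, 657 and 1281 (the proline) of the reading frames of *Dnmt3a*, *Dnmt3b* and *Dnmt1*. In the TET genes the capitals mark the histidine to aspartate codons that bind the iron atom, starting at codon 1652 of *Tet1*, 1303 of *Tet2* and 950 of *Tet3*.
Dnmt3a: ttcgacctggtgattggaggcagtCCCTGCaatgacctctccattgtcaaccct
Dnmt3b: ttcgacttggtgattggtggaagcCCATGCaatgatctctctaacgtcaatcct
Dnmt1: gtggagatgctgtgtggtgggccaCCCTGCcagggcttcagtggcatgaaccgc
Tet1: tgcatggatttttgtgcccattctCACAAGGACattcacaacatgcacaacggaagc
Tet2: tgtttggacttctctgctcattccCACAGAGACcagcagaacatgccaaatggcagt
Tet3: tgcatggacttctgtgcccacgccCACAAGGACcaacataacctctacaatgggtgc

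*Dnmt3a* and *Dnmt3b* share 44 of the 54 bases shown, and each shares 28 of 54 with *Dnmt1*. *Tet1* and *Tet3* share 42 of 57, and *Tet2* shares 39 of 57 with either. The reading frame of *Dnmt3l*, 421 codons long, holds no proline and cysteine pair followed by asparagine or glutamine.

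Sequencing gave 49975599 to 89070402 fragments per sample, and the 5 CB samples, at 49975599 to 53407103, were less deep than all 7 BC samples. ES cell markers were present in every sample: all 10 of the list were above 1 TPM (reads per transcript length, scaled to the same sum in each sample), and their summed level was 6837 to 18317 TPM. *Kdm6a* was at 49.8 and 51.3 TPM in male BC wt and at 11.6 (ΔE1), 13.5 (ΔE3) and 0.044 TPM (ΔP4) in the BC clones. It was at 51.0 and 51.7 TPM in male CB wt and at 2.07 (ΔE2.5), 7.28 (ΔE2.7) and 0.036 TPM (ΔP2.1) in the CB clones. The remaining signal differed so much between clones that *Kdm6a* itself missed the threshold (edgeR FDR = 0.509 in BC and 0.190 in CB).

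Markers of other cells varied between samples. Of 10 fibroblast markers, the summed level was 77.7 to 81.6 TPM in male BC wt, 20.1 to 86.3 TPM in the BC clones and 86.6 to 87.9 TPM in female BC wt, and it was 772 to 788 TPM in male CB wt and 77.1 (ΔE2.5), 303 (ΔE2.7) and 1099 TPM (ΔP2.1) in the CB clones. In CB this sum was mostly *Acta2*, at 692 and 683 TPM in wt and 960 TPM in ΔP2.1, and in female BC wt mostly *Thy1*, at 67.4 and 66.3 TPM. Of 9 fibroblast markers tested between the male wt lines, edgeR called 7 higher in CB and 1 lower. The collagen gene *Col1a1* was at 56.3 and 52.1 TPM in CB wt and at 9.23 and 7.45 TPM in male BC wt. *Col3a1*, *Dcn* and *Postn* were also higher in CB wt. Another collagen gene, *Col1a2*, was at 2.8 TPM in both CB wt samples and at 2.8 and 2.5 TPM in male BC wt. *Lum* was at 0 in 1 female sample. In bulk RNA, fewer cells of a type and less RNA per cell cannot be told apart.

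The level of the genes spanned more than 2 orders of magnitude. In male BC wt, *Dnmt3l* ranked 99th among all genes at 901 ± 42.1 TPM (SD, n = 2), followed by *Dnmt3b* at 390.4 ± 5.75, *Dnmt1* at 274 ± 21.5, *Uhrf1* at 264 ± 27.9, *Dnmt3a* at 150 ± 12.02 and *Tet1* at 111 ± 18.2 TPM. *Tet2* was at 26.2 ± 4.77 TPM and *Tet3*, the lowest, at 6.47 ± 1.41 TPM. *Dnmt1* and *Uhrf1* did not differ beyond their spread. The plot of levels by sample shows where each group lay.

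**Figure D1:**
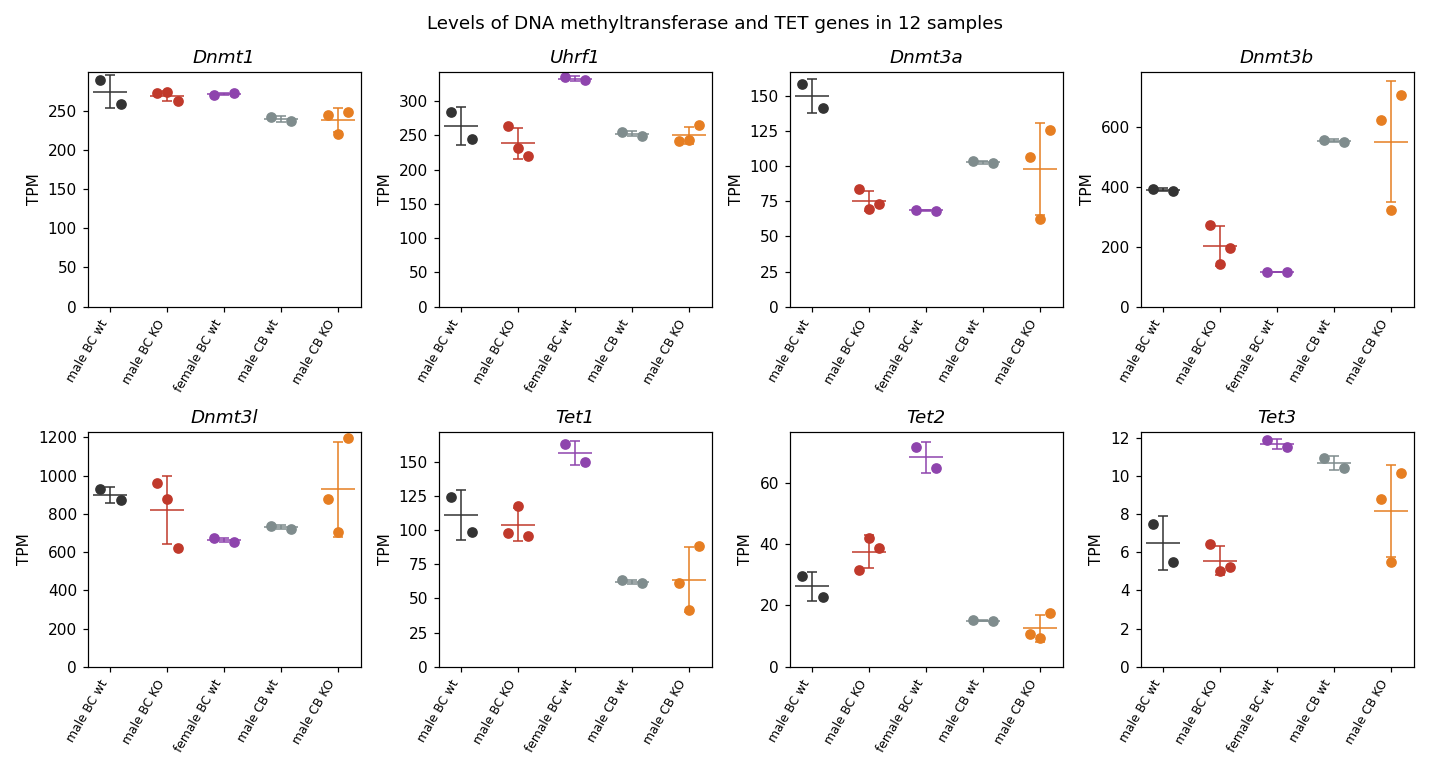
Levels in TPM of the 8 genes (1 panel a gene) in the 5 groups; each point is 1 sample, and the horizontal mark with its bar is the group mean ± SD. *Dnmt3a* and *Dnmt3b* were lower in the 3 BC KO clones than in both male BC wt samples. In female BC wt *Dnmt3b* was lower still and *Dnmt3a* was about level with the lowest BC clone. *Dnmt1* stayed between 221 and 290 TPM in all samples.

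The first comparison asks whether loss of *Kdm6a* changed these genes within each cross. In BC, the de novo enzymes stood out. *Dnmt3a*, on chromosome 12 (GRCm38, 3806007 to 3914443), was at 159 and 142 TPM in male BC wt and at 83.5 (ΔE1), 69.8 (ΔE3) and 73.2 TPM (ΔP4) in the clones, 55.5%, 46.4% and 48.7% of the wt mean. All 3 clones were below both wt samples, and the clones lay closer to each other than to wt. The fold change was -1.03 on the log2 scale (SE 0.12), which did not pass over the 13805 genes tested (edgeR FDR = 0.117) but passed with DESeq2 (adjusted p = 7.8e-09).

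*Dnmt3b*, on chromosome 2 (153649450 to 153687730), was at 394 and 386 TPM in male BC wt and at 273 (ΔE1), 142 (ΔE3) and 194 TPM (ΔP4) in the clones. The groups again did not overlap, but the clones spread from 70.03% to 36.4% of the wt mean, with ΔE1 nearest to wt. The log2 fold change was -0.98 (SE 0.25; edgeR FDR = 0.339, DESeq2 adjusted p = 0.0170). *Dnmt3l*, on chromosome 10 (78041947 to 78063622), did not separate: it was at 931 and 871 TPM in wt, at 963 and 876 TPM in ΔE1 and ΔE3, and at 619 TPM in ΔP4. Its log2 difference was -0.17 (SE 0.20; edgeR FDR = 0.794).

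By edgeR, 0 of the 8 genes were called in BC at an FDR under 0.05 and at least 1.5-fold, where 0.029% of all genes tested (4) were. By DESeq2, 2 of 8, *Dnmt3a* and *Dnmt3b*, were called, where 1.88% of all genes (260) were; both were lower, as were 0.761% of all genes (105). At an unadjusted edgeR p under 0.05, 2 of 8 were lower, where 4.49% of all genes were, and 1 of 8, *Tet2*, was higher, where 6.56% were. All clones were below both wt samples for 2 of 8 genes, against 10.9% of all genes, and above for 1 of 8, against 21%. *Dnmt3a* and *Dnmt3b* stand in the study's gene list for these same clones, so their lower level here is not independent evidence.

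The maintenance genes showed no such separation in BC. *Dnmt1* (chromosome 9, 20907209 to 20959888) was at 290 and 259 TPM in wt and at 272, 274 and 262 TPM in ΔE1, ΔE3 and ΔP4, so every clone lay between the wt samples. *Uhrf1* (chromosome 17, 56303321 to 56323486) was at 284 and 244 TPM in wt and at 264, 232 and 219 TPM in the clones. The log2 differences were -0.07 (SE 0.11) and -0.19 (SE 0.13), and neither passed (edgeR FDR = 0.856 and 0.652).

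Of the TET genes in BC, *Tet2* (chromosome 3, 133463679 to 133545139) was at 29.6 and 22.9 TPM in wt and at 31.6 (ΔE1), 42.0 (ΔE3) and 38.8 TPM (ΔP4) in the clones. All clones were above both wt samples, ΔE1 only just, and the log2 fold change of 0.47 (SE 0.17) did not pass (edgeR FDR = 0.386, DESeq2 adjusted p = 0.214). *Tet1* (chromosome 10, 62804570 to 62908996) was at 124 and 98.4 TPM in wt and at 97.8, 118 and 96.0 TPM in the clones, and *Tet3* (chromosome 6, 83362373 to 83459084) at 7.48 and 5.47 TPM in wt and at 6.44, 5.01 and 5.24 TPM in the clones. For both, wt and KO samples overlapped and the wt samples were themselves far apart.

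In CB, no gene of the 8 was called by either tool. By edgeR, 0 of all 13801 genes were called, 2832 (20.5%) had an unadjusted p under 0.05, and DESeq2 called 501 (3.63%). *Dnmt3a* was at 104 and 102 TPM in wt and at 107 (ΔE2.5), 62.1 (ΔE2.7) and 126 TPM (ΔP2.1) in the clones. *Dnmt3b* was at 558 and 551 TPM in wt and at 624, 323 and 706 TPM in the same clones. In both genes ΔE2.7 was below wt and the other clones above it. The mean differences of 0.01 (SE 0.28) and 0.06 (SE 0.32) on the log2 scale thus average clones that went different ways. At its less strict fold threshold on TPM, the paper names *Dnmt3a* among genes changed in the KO clones of both crosses. Here the CB clones had a mean of 98.4 ± 32.9 TPM for *Dnmt3a*, against 103 ± 1.00 TPM in CB wt, so no shared change was seen in CB.

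*Dnmt3l* in CB was at 737 and 722 TPM in wt and at 878 (ΔE2.5), 706 (ΔE2.7) and 1198 TPM (ΔP2.1) in the clones, with a log2 difference of 0.42 (SE 0.22; edgeR FDR = 0.330). *Tet1* was at 63.3 and 61.0 TPM in wt and at 61.2, 41.4 and 88.4 TPM in the clones, and *Tet2* at 15.2 and 14.9 TPM in wt and at 10.7, 9.39 and 17.5 TPM in the clones. ΔE2.7 was again the lowest and ΔP2.1 the highest. *Tet3* was at 10.9 and 10.4 TPM in wt and at 8.78, 5.47 and 10.2 TPM in the clones, the only gene of the 8 for which all CB clones were below both wt samples, as were 32.3% of all genes; all CB clones were above both wt samples for 0 of 8, against 14.7% of all genes. Its log2 difference of -0.32 (SE 0.25) did not pass (edgeR FDR = 0.490).

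*Dnmt1* and *Uhrf1* moved little in CB. *Dnmt1* was at 242 and 237 TPM in wt and at 244, 221 and 249 TPM in ΔE2.5, ΔE2.7 and ΔP2.1. *Uhrf1* was at 256 and 250 TPM in wt and at 242, 244 and 265 TPM in the clones. Their log2 differences were 0.07 (SE 0.08) and 0.06 (SE 0.07). ΔE2.7, the lowest of the CB samples in 7 of the 8 genes, all except *Uhrf1*, had a fibroblast marker sum of 303 TPM, between ΔE2.5 and ΔP2.1, and the part of other cells in these differences was not tested.

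**Figure D2:**
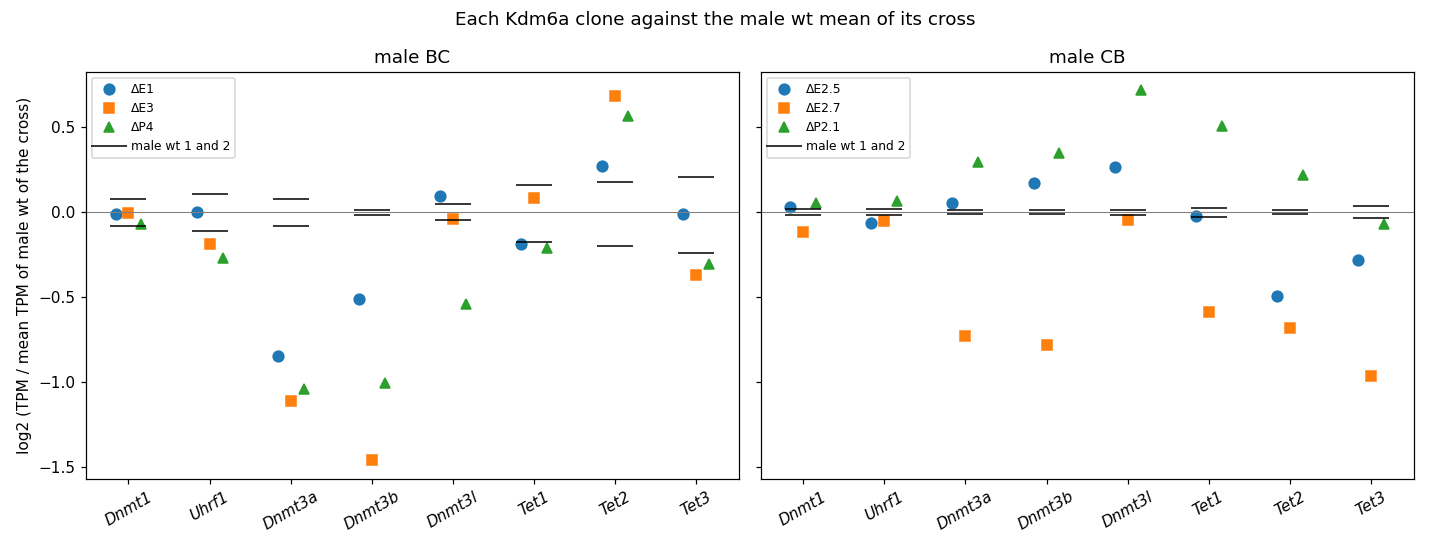
log2 ratio of the TPM of each *Kdm6a* KO clone to the mean of the male wt samples of its cross (left BC, right CB), with the wt samples as black dashes. In BC the clones lie at -0.85 to -1.11 for *Dnmt3a* and at -0.51 to -1.46 for *Dnmt3b*, and in CB ΔE2.7 lies at -0.73 and -0.78 while ΔP2.1 lies at 0.29 and 0.35.

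Whether the change differed between the crosses was tested as the interaction of cross and KO over the 10 male samples. The interaction was 1.03 (SE 0.33) for *Dnmt3a* and 1.04 (SE 0.45) for *Dnmt3b* on the log2 scale, the CB change minus the BC change. Neither passed (edgeR FDR = 0.192 and 0.279; DESeq2 adjusted p = 0.0584 and 0.162). By edgeR, 0 of the 8 genes and 9 of 14298 genes (0.0629%) had a called interaction, and at an unadjusted p under 0.05 these were 2 of 8 and 2395 (16.8%); DESeq2 called 0 of 8 and 632 (4.42%). When the 10 male samples were fitted together, with a term for the cross, the KO difference was -0.53 (SE 0.22) for *Dnmt3a* and -0.48 (SE 0.26) for *Dnmt3b*, and neither passed (edgeR FDR = 0.467 and 0.560). In that fit edgeR called 0 of 8 and 0 of all genes (at an unadjusted p under 0.05, 1 of 8, *Dnmt3a*, and 10.1% of all genes), and DESeq2 0 of 8 and 0.574%.

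Markers of developmental state were read beside the de novo genes. The summed level of 6 primed epiblast markers (*Fgf5*, *Otx2*, *Pou3f1*, *Dusp6*, *Lef1*, *Sox3*) was 364 to 374 TPM in male BC wt, 222 to 291 TPM in the BC clones and 152 TPM in female BC wt, though *Dusp6* in ΔE3, at 140 TPM, was above both wt samples. By edgeR, 0 of these 6 were called in the BC clones; DESeq2 called 2 lower, where 0.761% of all genes were. The summed ES cell markers of the BC clones, 8129 (ΔP4) to 11054 TPM (ΔE1), overlapped with male BC wt, at 8340 to 9593 TPM. By gene, *Nanog*, *Zfp42*, *Esrrb*, *Klf4* and *Fgf4* were above both wt samples in every BC clone, and the rest of the list overlapped with wt. EdgeR called 0 of 10, and DESeq2 called 4 higher, where 1.12% of all genes were. At an unadjusted edgeR p under 0.05, 5 of 10 were higher and 0 lower, where 6.56% of all genes were higher. In CB the primed sum was 514 to 519 TPM in wt and 387 to 505 TPM in the clones, with ΔE2.7 at 406 TPM between the others. The part of these marker shifts in the levels of *Dnmt3a* and *Dnmt3b* was not tested.

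The female BC wt samples gave the largest separations from the same male BC wt samples that served as KO controls. *Dnmt3b* was at 116 and 117 TPM in female wt, 29.8% and 29.9% of the male mean, and *Dnmt3a* at 69.0 and 68.4 TPM, 45.9% and 45.5%. Both were called lower, at log2 fold changes of -1.80 (SE 0.07) and -1.19 (SE 0.07), with edgeR FDR = 4.0e-09 and 1.2e-07. *Dnmt3l* was at 672 and 654 TPM, a difference of -0.50 (SE 0.07) that had an edgeR FDR of 6.0e-05 but was smaller than 1.5-fold. *Dnmt3b* in female wt was thus below even the lowest BC KO clone, ΔE3, at 142 TPM. *Dnmt3a* in female wt was about level with ΔE3, at 69.8 TPM.

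The TET genes went the other way in female BC wt. *Tet2* was at 71.8 and 64.7 TPM and *Tet3* at 11.9 and 11.5 TPM, both called higher at log2 fold changes of 1.32 (SE 0.11) and 0.80 (SE 0.12; edgeR FDR = 7.5e-07 and 8.3e-05). *Tet1* was at 163 and 150 TPM and *Uhrf1* at 336 and 330 TPM, differences of 0.43 (SE 0.10) and 0.28 (SE 0.08) that stayed under 1.5-fold (edgeR FDR = 0.00213 and 0.00781). *Dnmt1* was at 271 and 273 TPM, between the male samples, and did not pass (edgeR FDR = 0.398).

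In all, 4 of 8 genes were called between the sexes, 2 lower and 2 higher, where 44.5% of all 14049 genes were called, 19.9% lower and 24.5% higher, so this share was close to that of genes at large. The female samples also differed in their state: the summed ES cell markers were 17105 to 18317 TPM against 8340 to 9593 TPM in male BC wt, and edgeR called 5 of 6 primed epiblast markers lower. On chromosome 12, which carries *Dnmt3a*, the median gene was 0.40 and 0.37 higher than in male BC wt on the log2 scale, so *Dnmt3a* was lower against a chromosome that was higher. On chromosome 2, which carries *Dnmt3b*, the medians were 0.02 and 0.01. In the BC clones the medians were 0.05 to 0.12 on chromosome 12 and 0.02 to 0.04 on chromosome 2.

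The wt lines of the reciprocal crosses differed as well, which sets the base from which the clones are read. *Tet1* and *Tet2* were lower in male CB wt than in male BC wt, at log2 fold changes of -0.91 (SE 0.10) and -0.87 (SE 0.11; edgeR FDR = 0.00024 and 0.00050), and *Dnmt3a* was lower at -0.61 (SE 0.06; FDR = 0.00013). *Tet3* was higher at 0.66 (SE 0.13; FDR = 0.0039). These 4 of 8 genes were called, where 34.5% of all 13828 genes were, 14.7% lower and 19.8% higher. Marker lists of several cell types differed in the same comparison. In CB wt edgeR called 7 of 9 fibroblast markers higher and 1 lower, 4 of 4 trophoblast markers higher (*Krt8* at 529 and 526 TPM against 27.3 and 33.5 TPM), 3 of 5 primitive endoderm markers higher and 4 of 10 ES cell markers lower. Their part in these differences was not tested. In 1 fit of all 12 samples only *Tet1* and *Tet2* of the 8 were called, and *Dnmt3a* and *Tet3* had an edgeR FDR of 0.061 and 0.062. The shares of all genes given here belong to the fit of the male wt samples, so this count is not set against them.

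*Dnmt3b* was higher in CB wt by 0.44 (SE 0.04), *Dnmt3l* lower by 0.37 and *Dnmt1* lower by 0.26 on the log2 scale. All 3 had an edgeR FDR under 0.05 (0.00014, 0.00050 and 0.0060) but were under 1.5-fold. For *Dnmt3b* and *Uhrf1* the mapping differed between the crosses: counts on the BL6 genome were 1.10 to 1.12 times the diploid counts for *Dnmt3b* and 1.14 to 1.16 times for *Uhrf1* in male BC wt, but 1.04 and 1.03 times in male CB wt. With BL6 genome counts, the difference was 0.37 for *Dnmt3b* and -0.26 for *Uhrf1*, against -0.13 for *Uhrf1* in diploid counts.

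**Figure D3:**
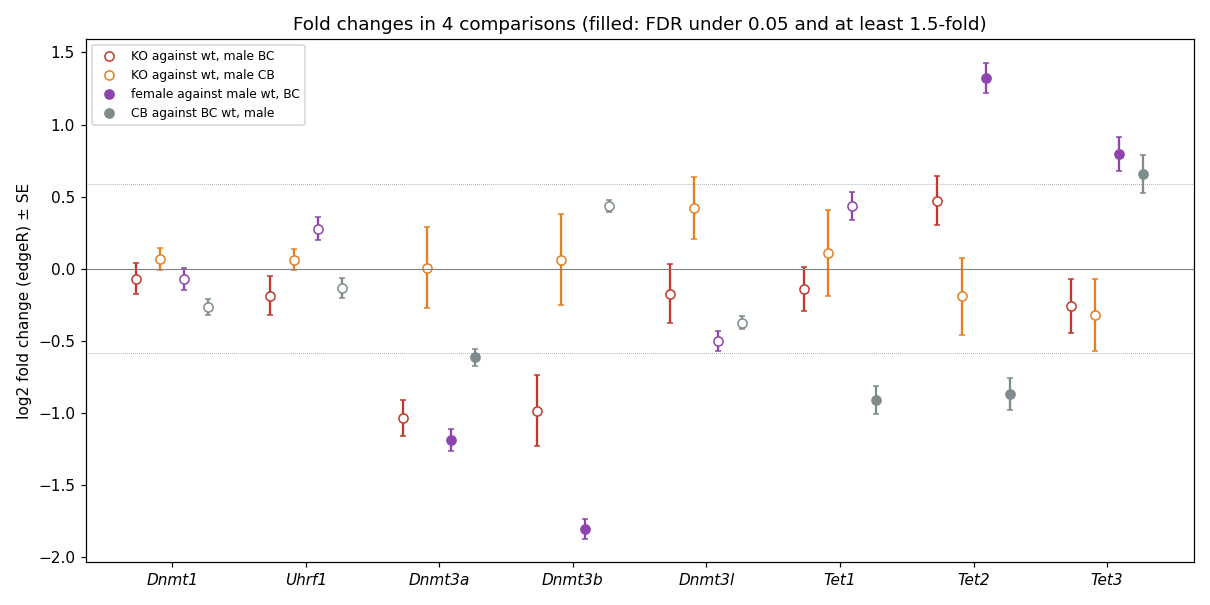
log2 fold changes with their SE from edgeR for the 8 genes in 4 comparisons; filled points passed an FDR under 0.05 and 1.5-fold (dotted lines), open points did not. The points of *Dnmt3a* and *Dnmt3b* in KO against wt of BC lie at -1.03 and -0.98 but are open, and those of female against male wt, at -1.19 and -1.80, are filled.

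By group, the order of the levels was as follows. *Dnmt3b* was highest in male CB wt (554 ± 5.44 TPM) and CB KO (551 ± 202), then in male BC wt (390.4 ± 5.75), BC KO (203 ± 66.1) and female BC wt (117 ± 0.30). CB KO overlapped with both its neighbours through ΔE2.7, and the BC groups did not overlap. *Dnmt3a* was highest in male BC wt (150 ± 12.02), then in CB wt (103 ± 1.00) and CB KO (98.4 ± 32.9), BC KO (75.5 ± 7.16) and female BC wt (68.7 ± 0.43). CB wt overlapped with CB KO, and CB KO with BC KO. *Tet2* ran from female BC wt (68.2 ± 4.98) through BC KO (37.5 ± 5.32) and BC wt (26.2 ± 4.77) to CB wt (15.1 ± 0.19) and CB KO (12.5 ± 4.37), and only the last 2 overlapped. The order of *Dnmt3b* was thus close to the reverse of that of *Tet2* among the groups.

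The balance between the genes shifted with these levels. The ratio of *Dnmt3b* to *Dnmt3a* in TPM was 2.48 and 2.72 in male BC wt, 3.27, 2.04 and 2.65 in ΔE1, ΔE3 and ΔP4, and 1.69 and 1.71 in female BC wt. It was 5.38 in both male CB wt samples and 5.19 to 5.85 in the CB clones, so the ratio changed more between lines than with KO. ΔE2.7, low in both genes, kept a ratio of 5.19. *Dnmt3l* per summed *Dnmt3a* and *Dnmt3b* was 1.65 to 1.68 in male BC wt and 2.32 to 4.14 in the BC clones, and 1.11 in male CB wt and 1.20 to 1.84 in the CB clones.

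The summed TET level per summed *Dnmt3a* and *Dnmt3b* was 0.29 and 0.24 in male BC wt, 0.38 (ΔE1), 0.78 (ΔE3) and 0.52 (ΔP4) in the clones, and 1.33 and 1.22 in female BC wt. In CB it was 0.13 to 0.14 in wt and 0.11 to 0.15 in the clones. *Tet1* made up 66.1% to 77.6% of the summed TET level in every sample. *Tet3* made up 12.1% to 12.2% in male CB wt but 4.32% to 4.64% in male BC wt.

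**Figure D4:**
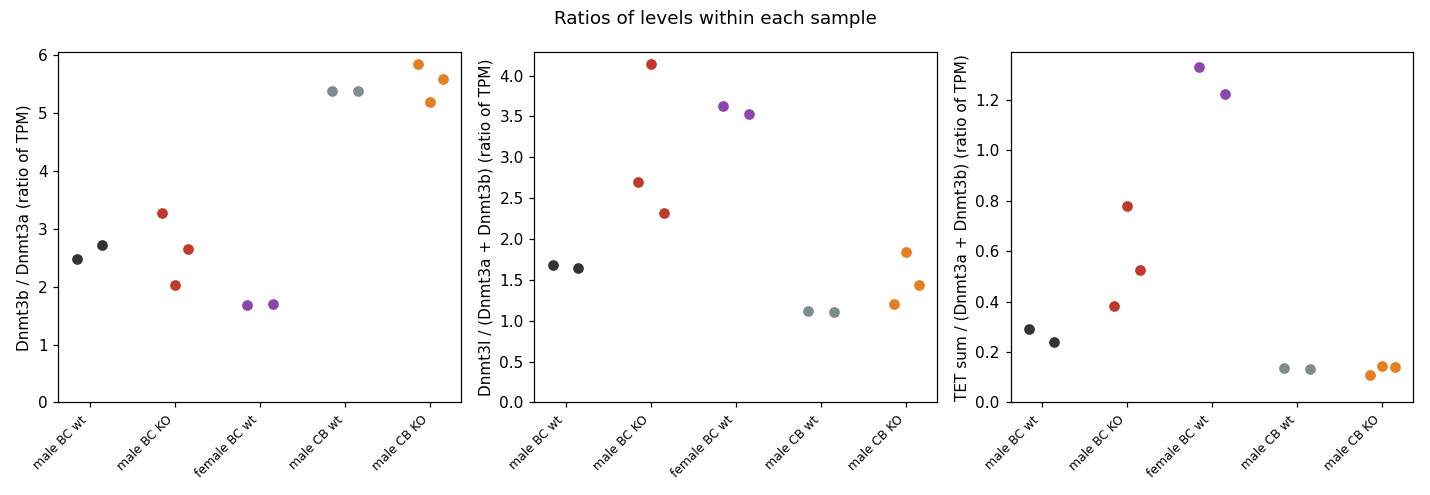
Ratios of TPM levels within each sample by group; each point is 1 sample. The ratio of summed TET genes to *Dnmt3a* and *Dnmt3b* was 0.24 to 0.29 in male BC wt, 0.38 to 0.78 in the BC clones and 1.22 to 1.33 in female BC wt, and stayed between 0.11 and 0.15 in CB.

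Fragments that carry a SNP were used to see the alleles. For the 8 genes there were 198 to 16089 such fragments a sample, and the intervals given are 95% Wilson intervals, which cover counting error only. Shares are as counted unless called adjusted. The ratio of BL6 to cast fragments over all autosomal genes was 1.24 in both male BC wt samples, 0.84 and 0.83 in female BC wt and 1.18 in both male CB wt samples. Adjusted shares, with the BL6 fragments divided by that ratio, are given where samples are compared. The ratio is of summed fragments, so genes with many fragments weigh most in it, and it need not match the median gene. *Dnmt3a* came mostly from the cast allele. Its BL6 share was 38.2% (36.4 to 40.0) and 42.3% (40.6 to 43.9) in male BC wt, 33.3%, 31.3% and 43.9% in ΔE1, ΔE3 and ΔP4, 30.5% and 27.6% in female BC wt, 36.8% and 39.0% in male CB wt and 37.0% to 38.1% in the CB clones. It was below the median gene of chromosome 12, at 43.0% to 52.4%, in 12 of 12 samples, whichever strain was the mother, and its adjusted share was 27.6% to 38.7%.

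*Dnmt1* was skewed to cast, most in CB. Its BL6 share was 47.6% (46.7 to 48.4) and 47.2% in male BC wt and 47.1% to 49.1% in the BC clones, but 33.2% (32.0 to 34.3) and 33.9% in male CB wt and 31.7% to 33.4% in the CB clones. Female BC wt, whose mother was BL6 as in male BC, was at 34.0% (33.2 to 34.8) and 33.3%. Adjusted, *Dnmt1* was at 42.3% and 41.8% in male BC wt, 41.8% to 44.7% in the BC clones, 38.1% and 37.5% in female BC wt, and 28.4% to 30.2% in CB. Female BC wt was thus next to CB in counted shares and nearer to male BC in adjusted ones, so its place depended on the scaling. The median gene of chromosome 9, as counted, was at 51.3% and 51.0% in male BC wt and at 46.7% and 46.4% in female BC wt. Which scaling is the better reference was not tested. The 35 genes with enough SNP fragments within 1 Mb of *Dnmt1* had a median BL6 share of 50.7% to 52.6% in all samples, so the skew was not shared by its neighbourhood.

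In male wt, *Dnmt1* and *Dnmt3a* were called lower from the BL6 than from the cast allele, at log2 differences of -0.85 (SE 0.02) and -0.92 (SE 0.04). These 2 of 8 compare with 32.3% of all 12158 genes called, 19.7% lower from BL6. The median of all genes in this fit was -0.18, and with TMM scaling of the allele libraries the differences were -0.66 and -0.73 and both calls held. *Uhrf1* was higher from BL6 by 0.16 (SE 0.03) and under 1.5-fold, with a share of 53.4% to 59.2%, above the median gene of chromosome 17 in 12 of 12 samples. For *Dnmt3b* (-0.01), *Dnmt3l* (-0.15) and *Tet1* (-0.13) the sign turned with TMM scaling, to 0.17, 0.03 and 0.05, so no direction is given for them. *Tet2* (-0.24) and *Tet3* (-0.23) were under 1.5-fold and went to -0.06 and -0.04.

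None of the 8 was called between the maternal and the paternal allele, where 11.1% of genes were. The largest of the 8 coefficients was that of *Dnmt1*, 0.38 (SE 0.02) higher from the mother in this fit of the male lines and under 1.5-fold (edgeR FDR = 3.6e-53). *Dnmt3b* had a BL6 share of 51.9% and 52.8% in male BC wt, 41.6% and 39.8% in female BC wt and 56.9% and 56.4% in male CB wt. Adjusted, these were 46.7% and 47.4%, 46.0% and 44.2%, and 52.8% and 52.2%. The share of *Dnmt3b* in the BC clones was 51.3% to 52.5%, beside levels of 36.4% to 70.03% of the wt mean, and adjusted it was 46.5% to 48.0%, near wt on both scales. *Tet2* was near balance in males, at 49.1% to 52.2%, and at 55.1% (53.8 to 56.4) and 56.6% (55.0 to 58.1) in female BC wt (adjusted, 44.0% to 49.0% in males and 59.4% and 60.9% in female BC wt), and *Tet1* lay at 48.1% to 54.0% in all samples. *Tet3*, with 198 to 786 SNP fragments a sample, spread from 42.3% to 57.1%.

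**Figure D5:**
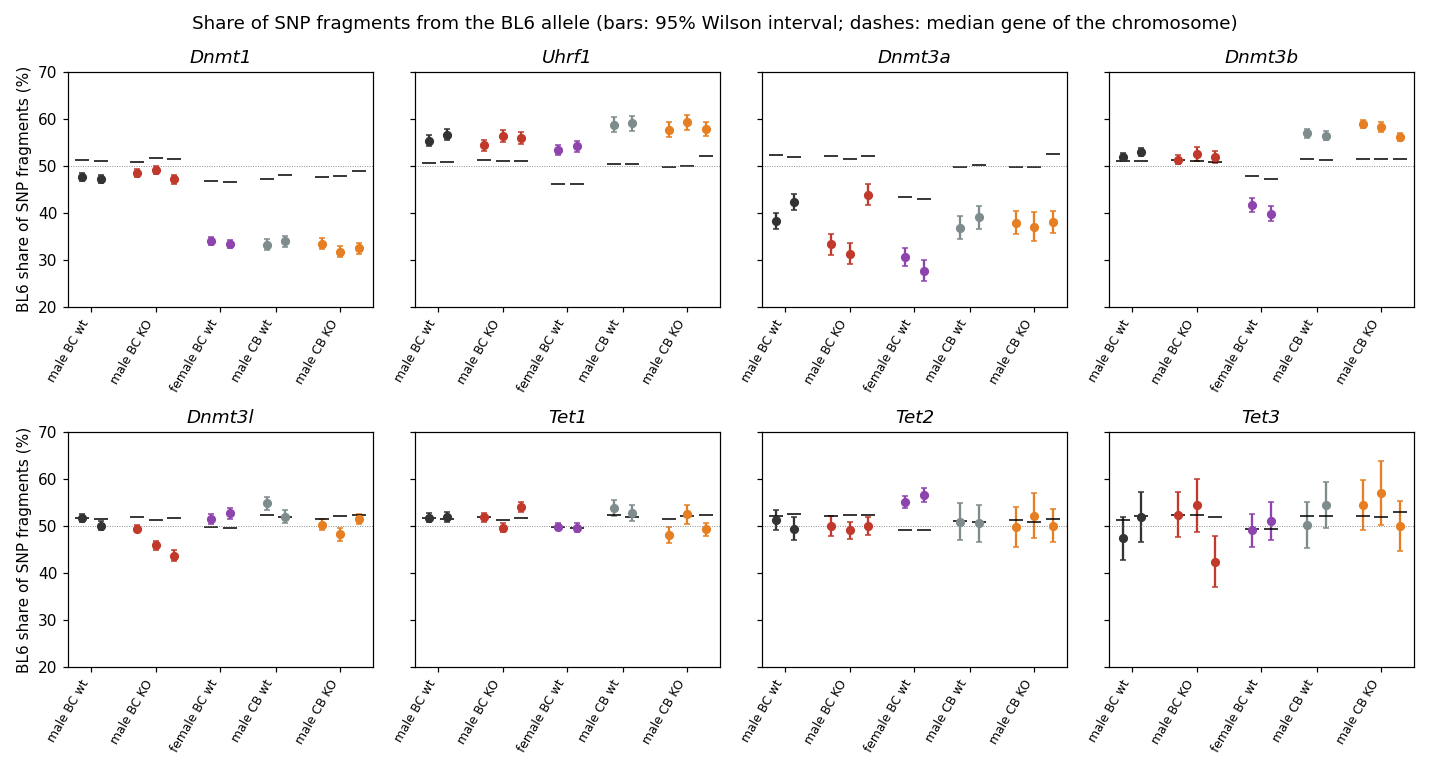
Share of SNP fragments from the BL6 allele in each sample, with 95% Wilson intervals; black dashes are the median gene of the same chromosome and the dotted line is 50%. The shares are not adjusted for the autosomal ratio of each sample. *Dnmt3a* lies at 27.6% to 43.9% in all samples, and *Dnmt1* at 47.1% to 49.1% in male BC and at 31.7% to 34.0% in female BC and CB, where adjusted shares would be 37.5% to 38.1% in female BC and 28.4% to 30.2% in CB.

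Whether KO acted unequally on the alleles was tested as the interaction of allele and KO. By edgeR, 0 of 8 genes were called in BC, where 2 of 12367 genes (0.0162%) were, and 0 of 8 in CB, where 0 of 11809 were; at an unadjusted p under 0.05, 0 of 8 stood in either cross, against 646 genes (5.22%) in BC and 282 (2.39%) in CB. For *Dnmt3a* in BC the interaction was -0.22 (SE 0.20; edgeR FDR = 0.895), with ΔP4 at a BL6 share of 43.9% and ΔE1 and ΔE3 at 33.3% and 31.3%. Without ΔP4, which leaves clones of 1 editing event, it was -0.44 (FDR = 0.0156), and 569 genes were then called. *Dnmt3l* had BL6 shares of 51.8% and 50.1% in male BC wt and 49.5%, 45.9% and 43.6% in ΔE1, ΔE3 and ΔP4. Adjusted, these were 46.5% and 44.7% in wt and 45.3%, 41.5% and 38.5% in the clones, so ΔE1 lay between the wt samples. The *Dnmt3l* interaction was -0.22 (SE 0.11; edgeR FDR = 0.822).

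Genes that work with these enzymes were examined in 6 lists. In BC, edgeR called 0 genes of any list, and the median log2 differences of the lists lay between -0.13 and 0.19, beside 0.01 over all genes. Of 13 maintenance and protection partners, DESeq2 called 1 higher, *Prdm14*, where 1.12% of all genes were called higher. This gene encodes a factor that holds down de novo methylation in ES cells. *Prdm14* was at 17.1 and 16.7 TPM in male BC wt and at 22.3 (ΔE1), 31.1 (ΔE3) and 28.4 TPM (ΔP4) in the clones, a log2 fold change of 0.65 (SE 0.17; edgeR FDR = 0.343, DESeq2 adjusted p = 0.0427). *Prdm14* was highest in ΔE3, the clone in which *Dnmt3b* was lowest, but a link between these genes was not tested.

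Of the same list, the remodeller gene *Hells* had a log2 difference of -0.35 (SE 0.10) and *Ctcf* of -0.37 (SE 0.11) in BC, and neither passed. Of 14 active demethylation and repair genes tested, 3 had an unadjusted edgeR p under 0.05, all higher, *Apobec1* (0.88), *Gadd45a* (0.52) and *Cxxc5* (0.44), where 6.56% of all genes were higher at this level, and 0 passed. Of 14 S phase genes, 4 had an unadjusted p under 0.05, all lower, among them *Mcm5* (-0.55), *Gins2* (-0.46) and *Cdt1* (-0.36), where 4.49% of all genes were lower at this level. Against the same shares, 1 of 12 methyl donor genes was higher, *Idh2* (0.60), and 1 lower, *Ahcy* (-0.46). Of 14 germline genes, 1 was higher, *Sycp3* (0.69), and 0 lower. Of 9 readers, 0 were in either direction. *Mcm5* was at 702 and 643 TPM in male BC wt and at 447 (ΔE1), 390 (ΔE3) and 585 TPM (ΔP4) in the clones. *Gins2*, *Cdt1* and *Ctcf* were also nearest to wt in ΔP4, and ΔE1 and ΔE3 came from 1 editing event. The chromosomes of the list genes were not examined. Genes linked on 1 chromosome would not be separate hits, so the shares over all genes do not show a change of the list as such. The part of chromosome copy number in these differences was not tested.

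In CB, edgeR again called 0 genes of any list. DESeq2 called *Gadd45b* lower and *Gadd45a* higher among 13 demethylation and repair genes, where 2.47% of all genes were called lower and 1.16% higher. *Gadd45b* was at 106 and 103 TPM in CB wt and at 35.8, 55.9 and 55.1 TPM in ΔE2.5, ΔE2.7 and ΔP2.1, a log2 fold change of -1.01 (SE 0.21; edgeR FDR = 0.137, DESeq2 adjusted p = 0.00069). *Gadd45a* was at 121 and 118 TPM in CB wt and at 206, 214 and 145 TPM in the clones (0.73, SE 0.19; edgeR FDR = 0.164, DESeq2 adjusted p = 0.0079). *Gadd45a* is the only gene of the lists that the naming rule picked in both crosses.

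Among 10 readers in CB, DESeq2 called *Zbtb4* lower (-1.06, SE 0.25), where 2.47% of all genes were. *Mbd2*, at -0.36 (SE 0.09), stayed under 1.5-fold. Of 14 S phase genes, 10 had an unadjusted edgeR p under 0.05 in CB, all higher, where 10% of all genes were higher at this level, and the list median was 0.30. *Mcm3* (0.78), *Mcm6* (0.66) and *Ccne1* (0.55) had the largest differences that put all clones on 1 side of wt. DESeq2 called *Mcm3*, where 1.16% of all genes were called higher. *Mcm3* was at 471 and 462 TPM in CB wt and at 843 (ΔE2.5), 868 (ΔE2.7) and 561 TPM (ΔP2.1) in the clones. *Mcm6* was likewise nearest to wt in ΔP2.1, at 325 TPM, against 533 (ΔE2.5) and 536 TPM (ΔE2.7). *Ccne1* was highest in ΔP2.1, at 675 TPM. Here too the chromosomes of the list genes were not examined, so the 10 may not be separate hits. *Dnmt1* and *Uhrf1*, which are known to be expressed in S phase, had differences of 0.07 and 0.06 in CB. In the other lists *Trim28* (0.33), *Cdca7l* (0.31) and *Usp7* (0.25) of the maintenance partners, *Parp1* (0.51) of the repair genes, and *Shmt1* (0.39) and *Shmt2* (0.24) of the methyl donor genes were higher and did not pass. *Parp1* was at 533 TPM in both CB wt samples and at 798 (ΔE2.5), 804 (ΔE2.7) and 564 TPM (ΔP2.1) in the clones. The part of chromosome copy number in these differences was not tested.

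Germline genes whose promoters are methylated in somatic cells were not used in the choice of the 8 genes. Their list was chosen with earlier results of these data known, so it is not independent of them. Between the sexes, edgeR called 9 of 14 such genes higher and 1 lower in female BC wt, with a list median of 0.95, where 24.5% of all genes were called higher. Between male CB and BC wt, edgeR called 11 of 14 lower and 0 higher, with a median of -1.08, where 14.7% of all genes were called lower. In the KO clones, edgeR called 0, with medians of 0.02 in BC and 0.39 in CB, and *Hormad1* (0.98), *Mov10l1* (0.86) and *Ddx4* (0.39) had the largest differences in CB that put all clones on 1 side of wt. DNA methylation itself was not measured in these samples.

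The genes whose levels most resembled each of the 8 were sought among 10808 genes with a mean of at least 5 TPM, by Pearson's r of log2(TPM + 1) over the 12 samples. *Tet2* was followed most closely by *Arhgap19* (r = 0.99, Spearman's rho = 1.00), *Gfod1* (0.98) and *Fam122b* (0.98). *Dnmt3b* was followed by *Gas8* (r = 0.98, rho = 0.97), *Crmp1* (0.97) and *Plekha1* (0.97). *Dnmt3a* had the weakest matches, *Armc6* (r = 0.88, rho = 0.87), *Dhx38* (0.86) and *Uba6* (0.86). *Gas8*, *Armc6* and *Dhx38* all lie on chromosome 8, and the part of chromosome copy number in their levels was not tested. These samples share crosses, sex and depth, and the values describe the 12 samples only.

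For the others, the closest were *Lifr* for *Dnmt1* (r = 0.92), *Bop1* for *Dnmt3l* (0.95), *Trim25* for *Uhrf1* (0.96), *Top2a* for *Tet1* (0.95) and *Zfp369* for *Tet3* (0.97). Over the 10 male samples alone, r was 0.99 for *Tet2* with *Arhgap19*, 0.96 for *Dnmt3b* with *Gas8* and 0.87 for *Uhrf1* with *Trim25*.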

How the data were processed

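Per the study's methods, libraries of a TruSeq RNA kit gave 75-base single-end reads; the authors used Tophat for diploid expression, and for alleles they mapped with bowtie to BL6 and to a cast version of that genome, at a mapping quality of at least 30, and assigned reads with SNPs to alleles. The submitters' processing notes name Bowtie2 2.2.5 and mm10; the counting tool and annotation are not given in the sources used here. The authors deposited estimated counts per gene and sample, not normalized, for the diploid genome, for each genome and for each allele. All sample columns were mapped to the labels.

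TPM were computed here from diploid counts and the longest GENCODE M21 transcript with a RefSeq match (GRCm38, the assembly of mm10); 23310 of 24346 genes matched by symbol and the others took the median length. For the tests, counts were rounded and fitted in edgeR 4.0.16 (quasi-likelihood, TMM, R 4.3.3), keeping any gene over 1 TPM in some sample of the comparison. Called means a Benjamini-Hochberg FDR under 0.05 over all genes kept and 1.5-fold (no fold limit for interactions). The genes lost with the second deletion of ΔE1 and ΔE3 did not enter fits with BC KO. DESeq2 1.42.0, the study's tool, other scalings, filters and genome counts, 1 fit of all samples, averaging of ΔE1 with ΔE3, and leaving out each sample were alternatives. Alleles were fitted on autosomal SNP fragments (mean of at least 10 a sample) with the sample as a block. The scripts were tested on simulated data.

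The genes described and the gene lists were chosen with earlier results of these data known. Lists held DNA methylation readers, maintenance partners, demethylation, methyl donor, S phase and germline genes. From each list and KO comparison, up to 3 genes are named, those with the largest change among genes with an unadjusted p under 0.05 and all clones on 1 side of both wt samples. Replicate wt samples differed by more than counting noise in the mean (chi-square per gene 15.9 to 32.8). The median gene was far lower, at 2.79 in male BC wt, 1.88 in female BC wt and 0.70 in male CB wt.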

Additional observations from a re-analysis of the deposited data

How the results depend on the processing

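In KO against wt of BC, 2 of the 8 genes were called with DESeq2 and 0 with edgeR under the other alternatives. In CB against BC wt, 2 of the 8 were called in 1 fit of all 12 samples. Over all genes, DESeq2 called 260 in BC, 501 in CB, 82 over both crosses and 632 interactions, where edgeR called 4, 0, 0 and 9; 1 fit of all samples called 61 in BC and 56 in CB. With ΔE1 and ΔE3 averaged, 6 were called in BC and 23 interactions. Without ΔP2.1, 928 genes were called in CB and 306 interactions, without ΔP4 22 genes over both crosses and 78 interactions; the cause was not tested. *Kdm6a* itself passed without ΔP4 in BC (-2.02, FDR = 0.0460) and without ΔP2.1 in CB (-3.37, FDR = 0.0428), and without ΔP2.1 *Gadd45a* (0.90), *Zbtb4* (-1.21), *Parp1* (0.67), *Mcm3* (0.96) and *Mcm6* (0.86) were called in CB with edgeR. The log2 difference of *Dnmt3a* in BC stayed between -1.13 and -0.96 and that of *Dnmt3b* between -1.28 and -0.79 under all 14 alternatives.

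Of the 8 genes, 0 to 1 were called in the allele by KO interaction of BC when 1 sample was left out. The 1 was *Dnmt3a* without ΔP4, a fit in which many other genes were called too, as given above. Differences near 0 turned sign. In CB, *Dnmt3a* was -0.035 with total count scaling, -0.00109 with median centring and -0.00891 above 5 TPM. *Dnmt1* between the sexes was 0.016 with total count scaling. With TMM over allele libraries, *Dnmt3b*, *Dnmt3l* and *Tet1* were 0.17, 0.032 and 0.051. Leaving out 1 sample, *Dnmt1* ranged from -0.14 to 0.0043, *Dnmt3l* from -0.31 to 0.013 and *Tet1* from -0.29 to 0.028 in BC, and *Dnmt3a* from -0.21 to 0.24, *Dnmt3b* from -0.15 to 0.33 and *Tet1* from -0.19 to 0.33 in CB.

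Without male BC wt 1, *Dnmt3a* between the crosses was -0.54 and under 1.5-fold, *Tet1* between the sexes was 0.60 and called; without male BC wt 2, *Tet3* between the crosses was 0.45 and under 1.5-fold. With BL6 genome counts, *Dnmt3a* between the crosses was -0.58. The labels share replicate numbers 1 and 2 without saying that they pair samples, and the replicate differences of the wt groups correlated over genes at 0.03 to 0.21. With the replicate number as a block (replicate block), 4 of the 8 genes were called between the sexes and 4 of the 8 between the crosses. These were the same calls of the 8 as without the block. TPM with the union of exons moved 30 of 40 group means by more than 1 SD.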
